A study of Mus musculus with 24 samples.

Results

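The subject is the added effect of buthionine sulfoximine (BSO) in lens cortical fibers of LEGSKO mice, read from 8 of the 24 libraries of an RNA sequencing study of mouse lens on a C57BL/6 background. They were chosen by their titles: 4 libraries of LEGSKO+BSO fibers against 4 of LEGSKO fibers. LEGSKO mice, as is known of the line, lack Gclc in the lens only, and both groups are labelled LEGSKO, so by their labels they differ in the drug. The series describes LEGSKO lenses as mildly and LEGSKO+BSO lenses as severely short of glutathione. A group of 4 untreated WT fiber libraries was fitted with them, and 4 LEGSKO+BSO and 4 LEGSKO libraries of lens epithelia served to test whether the 2 tissues differed in their response. The dose, route and length of BSO treatment, the age and sex of the mice, the driver of the deletion and whether each library came from its own animal are not stated in the labels.

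Glutathione is the main soluble thiol of the lens. It is made in a pair of steps, by glutamate-cysteine ligase (catalytic subunit Gclc, modifier subunit Gclm) and then by glutathione synthetase (Gss), and it is recycled from its disulfide by glutathione reductase (Gsr). BSO inhibits glutamate-cysteine ligase, so it can block synthesis that a cell-restricted knockout leaves in other cells. Cortical fibers are elongated, crystallin-filled cells on their way to losing nuclei and other organelles, in a tissue that has no blood vessels of its own.

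The fiber libraries carried the transcripts of their label. Mip, the fiber water channel, averaged 13174 ± 671 CPM in LEGSKO+BSO fibers and 12923 ± 351 CPM in LEGSKO fibers (CPM, the depth-scaled count used throughout, SD, n = 4), and crystallins took 29.6% ± 1.23 of all counts in LEGSKO+BSO fibers and 31.9% ± 2.18 in LEGSKO fibers. Gja1, a connexin of the lens epithelium, was at 0.916 to 15.6 CPM in LEGSKO+BSO fibers and at 1.90 to 11.2 CPM in LEGSKO fibers, with LEGSKO+BSO library 4 the highest. The same library stood apart in Igfbp5, another epithelial gene, with 18.3 CPM against 0.644 to 0.828 CPM in the other LEGSKO+BSO fibers. The summed level of 30 epithelial markers overlapped, at 8413 to 9287 CPM in LEGSKO+BSO fibers and 8710 to 9484 CPM in LEGSKO fibers. Depth moved with the groups: LEGSKO+BSO fibers had 39.0 to 46.6 M counts, LEGSKO fibers 22.4 to 25.5 M and WT fibers 25.7 to 30.01 M. A pair of libraries stood apart from the rest of their groups. LEGSKO fiber library 1 held 70.5 CPM of summed retinal markers, against 28.4 to 33.3 CPM in the other LEGSKO fiber libraries, and WT fiber library 1 held 50.1% crystallin counts, where the remaining WT libraries held 27.6% to 29.6%. Gclc, the deleted gene, had 79.3, 69.2, 71.7 and 78.9 CPM in LEGSKO+BSO fibers, 66.8, 77.8, 81.2 and 76.6 CPM in LEGSKO fibers and 135.2, 71.9, 75.5 and 70.4 CPM in WT fibers. LEGSKO thus overlapped 3 of the 4 WT libraries (log2 -0.22 for LEGSKO minus WT, edgeR adjusted p = 0.572). Whole-gene counts do not check the deletion, since the labels do not say which part of the gene is removed.

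Few transcripts separated the treated from the untreated knockout fibers. Of 13436 genes tested, 4 (0.0298%) had an adjusted p below 0.05 in edgeR's quasi-likelihood test, the threshold for a call throughout. Lyz2, Ccr2 and Ncf4 (0.0223%) were higher in LEGSKO+BSO fibers, and Mir703 (0.00744%) was lower. In the same fit, 220 genes (1.64%) differed between LEGSKO and WT fibers and 742 (5.52%) between LEGSKO+BSO and WT fibers. These comparisons share libraries with the one between LEGSKO+BSO and LEGSKO fibers. Most genes lay close together: 94.6% of those tested differed by less than 0.5 on the log2 scale between LEGSKO+BSO and LEGSKO fibers. Without adjustment, 1412 genes (10.5%) had a p below 0.05, 761 of them (5.66% of genes tested) higher in LEGSKO+BSO fibers and 651 (4.85%) lower. In 1208 genes (8.99%) the 4 libraries of one group did not overlap the 4 of the other, with 642 (4.78%) higher and 566 (4.21%) lower in LEGSKO+BSO fibers.

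**Figure D1:**
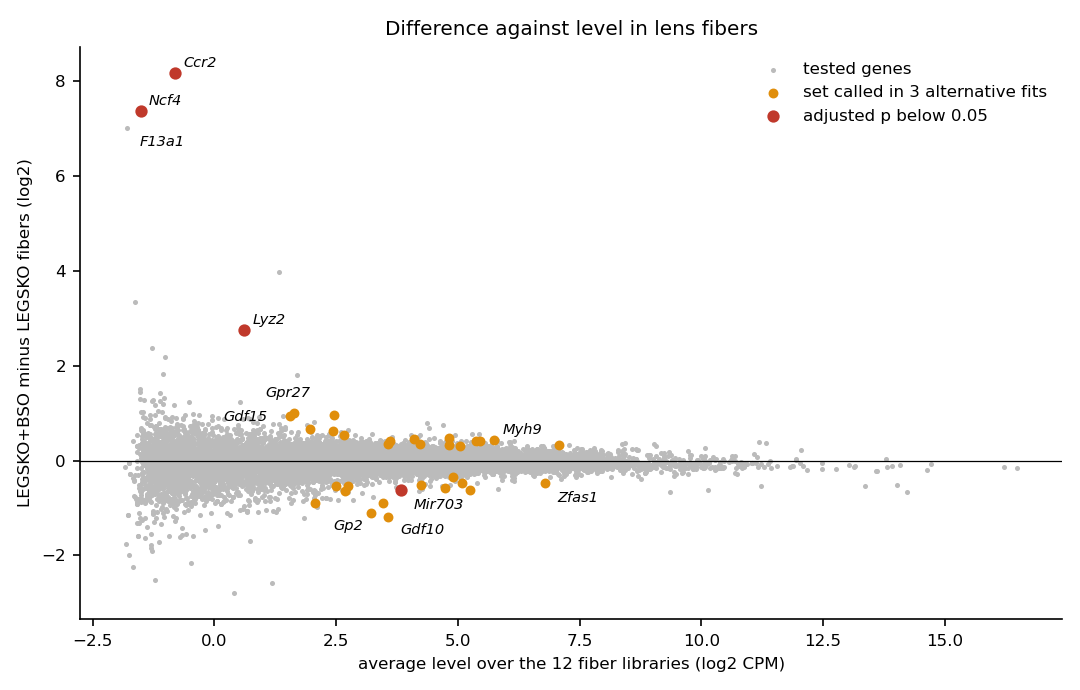
Each point is a gene tested in the fiber libraries. The x axis gives its average level over 12 libraries in log2 CPM, and the y axis the fitted log2 difference, LEGSKO+BSO minus LEGSKO fibers. Red marks the 4 genes with an adjusted p below 0.05, and orange a set of 31 genes called in each of 3 alternative fits. Lyz2, Ccr2 and Ncf4 lie above 0 at low levels, where uncalled genes such as F13a1 and Pirb also lie high, and the orange genes lie between -1.19 and 0.99.

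The number of calls differed between settings. It was 93 (0.683%) without WT fiber library 1, the one with the high crystallin share, 56 (0.417%) with the 8 LEGSKO+BSO and LEGSKO fiber libraries alone and 80 (0.595%) with DESeq2's Wald test. It was 14 (0.0682%) with no filter on low counts and 7 (0.045%) with all 24 libraries in the fit. It was 1 when the 8 libraries were thinned to the depth of the shallowest and 1 to 7 without any single LEGSKO+BSO or LEGSKO fiber library. Lyz2 was called in 24 of 24 alternatives, Ccr2 in 14 of 23, Ncf4 in 8 of 23 and Mir703 in 9 of 23.

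**Figure D2:**
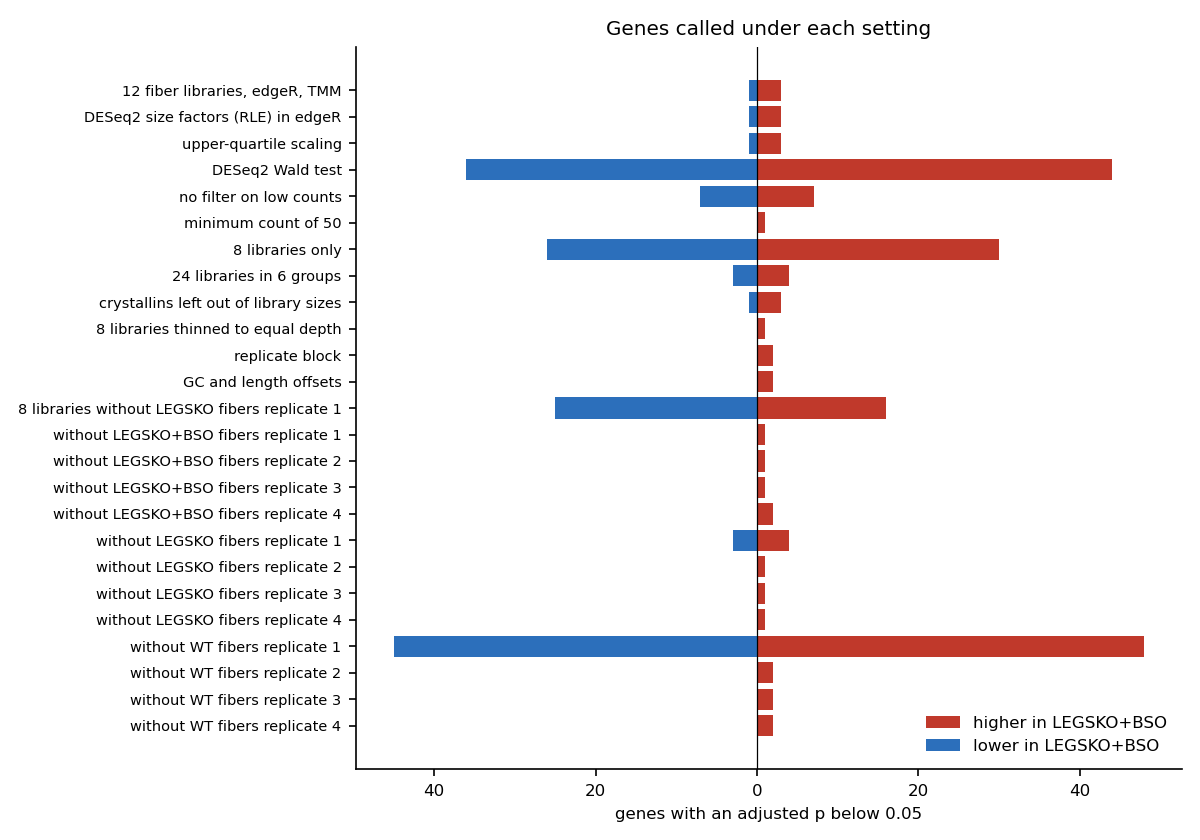
Bars give the number of genes with an adjusted p below 0.05 under each setting, to the right for genes higher in LEGSKO+BSO than in LEGSKO fibers and to the left for genes lower. The number is 4 in the fit of 12 fiber libraries, and the longest pair of bars, 48 higher and 45 lower, belongs to the fit without WT fiber library 1.

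The genes that were higher in LEGSKO+BSO fibers are genes of white blood cells. Lyz2 encodes lysozyme of macrophages, monocytes and neutrophils. It had 163, 133, 115 and 122 counts in LEGSKO+BSO fibers, against 11, 13, 11 and 8 in LEGSKO fibers and 11, 13, 7 and 15 in WT fibers. Every LEGSKO+BSO library stood far above every other fiber library, while LEGSKO and WT fibers overlapped. Lyz2 was 6.68-fold higher in LEGSKO+BSO than in LEGSKO fibers (log2 2.74, 95% interval 2.18 to 3.30, edgeR adjusted p = 0.000383). Its neighbour Lyz1 is a close copy, and reads may be split between them.

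Ccr2 is the chemokine receptor by which monocytes leave the bone marrow. It had 59, 65, 46 and 32 counts in LEGSKO+BSO fibers, against 0 in each of the 4 LEGSKO fiber libraries and 2, 4, 0 and 0 in WT fibers. Set against a floor of 3 counts over the LEGSKO group, Ccr2 was at least 36.5-fold higher in LEGSKO+BSO fibers (edgeR adjusted p = 0.0221). Ncf4, a cytosolic subunit of the phagocyte NADPH oxidase, had 28, 39, 23 and 26 counts in LEGSKO+BSO fibers and 0 in every LEGSKO and every WT fiber library. It was at least 20.96-fold higher than that floor (edgeR adjusted p = 0.0370). Both genes were thus near or below detection in all fibers that had not received BSO. They passed the filter on low counts only through the LEGSKO+BSO libraries, the group in which they were high and the most deeply sequenced. Their calls thus depend on that group for the test itself.

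Other genes of granulocytes and monocytes had the same pattern without an adjusted p below 0.05. F13a1, the A subunit of coagulation factor XIII, had 26, 21, 26 and 17 counts in LEGSKO+BSO fibers and 0 in each LEGSKO and each WT fiber library (edgeR adjusted p = 0.0703). Pirb, an inhibitory immunoglobulin-like receptor of myeloid cells with close relatives that can share its reads, had 32, 21, 18 and 28 counts in LEGSKO+BSO fibers, against 4, 0, 1 and 0 in LEGSKO fibers (edgeR adjusted p = 0.149). In neither gene did the groups overlap. Mpo (myeloperoxidase) and Ngp (neutrophilic granule protein) were below the level needed for a test. Mpo had 12, 21, 8 and 10 counts in LEGSKO+BSO fibers and Ngp 14, 18, 7 and 10, and both were at 0 in every LEGSKO and every WT fiber library. S100a9, a subunit of the neutrophil protein calprotectin, had 10, 10, 11 and 2 counts in LEGSKO+BSO fibers and 0 in LEGSKO and WT fibers. Of 36 such genes, gathered after the values were seen, 29 had a count in all 4 LEGSKO+BSO fiber libraries and 8 in all 4 LEGSKO fiber libraries. Over the whole table, 15265 of 24415 genes had a count in all 4 LEGSKO+BSO fiber libraries and 14738 in all 4 LEGSKO fiber libraries. Of the 36, 13 had a count in all 4 LEGSKO+BSO and in none of the LEGSKO fiber libraries, a pattern that 60 genes of the table had. Only 9 of the 36 passed the filter on low counts, and F13a1 and Pirb did so only through the LEGSKO+BSO libraries.

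Markers of tissue macrophages were low, and in several the groups overlapped. C1qa, a complement subunit, had 1, 0, 1 and 0 counts in LEGSKO+BSO fibers and 0, 0, 0 and 1 in LEGSKO fibers, and Csf1r, a growth factor receptor of macrophages, had 7, 5, 3 and 3 counts in LEGSKO+BSO fibers and 0, 0, 2 and 5 in LEGSKO fibers. Adgre1, the F4/80 antigen, had 11, 7, 4 and 1 counts in LEGSKO+BSO fibers and 0, 1, 4 and 6 in LEGSKO fibers. Cx3cr1, the fractalkine receptor, had 15, 9, 4 and 7 counts in LEGSKO+BSO fibers and 10, 3, 2 and 11 in LEGSKO fibers. Both overlapped between the groups, whereas Mpeg1, a pore-forming protein of macrophages, had 23, 9, 3 and 6 counts in LEGSKO+BSO fibers and 0 in every LEGSKO fiber library. C1qb had 11 counts in 1 LEGSKO+BSO fiber library and 0 in the other 3. Cd68, a lysosomal protein of macrophages, had 13, 21, 19 and 24 counts in LEGSKO+BSO fibers and 7, 10, 4 and 7 in LEGSKO fibers (log2 0.56, edgeR adjusted p = 0.692). The T cell marker Cd3e had no count in any fiber library. Over a list of 17 immune markers, the summed level was 3.98 to 6.37 CPM in LEGSKO+BSO fibers, 1.27 to 1.94 CPM in LEGSKO fibers and 1.05 to 2.28 CPM in WT fibers. Of the 17, 7 had a count in all 4 LEGSKO+BSO and 4 in all 4 LEGSKO fiber libraries, and 4 were at 0 in all LEGSKO fibers. Red blood cell markers summed to 3.31 to 6.76 CPM in LEGSKO+BSO fibers, 2.63 to 5.03 CPM in LEGSKO fibers and 0.445 to 0.976 CPM in WT fibers. Blood vessel markers summed to 109.6 to 118 CPM in LEGSKO+BSO fibers, 83.7 to 107 CPM in LEGSKO fibers and 73.2 to 103.6 CPM in WT fibers. Of the 12 vessel markers listed, 3 could be tested and 0 were called. Of these 3, 2 were below 0, with a median log2 difference of -0.17. The immune and vessel sums of LEGSKO+BSO fibers lay above those of both other groups, while the red cell sums overlapped LEGSKO. The immune sum includes Lyz2, which gave 163, 133, 115 and 122 of its 277, 214, 178 and 193 counts in LEGSKO+BSO fibers. That sum is thus not a measure apart from the call of Lyz2. The part of such cells in the other results was not tested. In bulk tissue, more cells of a type and more transcript per cell cannot be told apart.

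In treated epithelia, Ncf4 and Ccr2 reached such counts in 1 library of 4. Ncf4 had 0, 0, 1 and 38 counts in LEGSKO+BSO epithelia, and Ccr2 had 4, 0, 0 and 47. Lyz2 had 52, 86, 7 and 172 counts there, against 17, 19, 11 and 21 in LEGSKO epithelia. The library with 38 Ncf4 counts was LEGSKO+BSO epithelia 4. It and the 4 LEGSKO+BSO fiber libraries were the 5 most deeply sequenced of all 24, with 33.9 to 46.6 M counts. Together those 5 held 154 counts of Ncf4 and the other 19 libraries held 1. In fibers, depth and treatment therefore cannot be told apart. Thinned to equal depth, the 8 fiber libraries still gave a call for Lyz2 (log2 2.70, edgeR adjusted p = 0.00115). Ccr2 and Ncf4 were then at an adjusted p of 0.0572 each (edgeR), with fitted log2 differences of 7.61 and 7.11, beside 8.16 and 7.37 in the full libraries. Those fitted values depend on the prior count of the fit, since LEGSKO is at 0. The part of anything the 5 libraries share besides depth was not tested.

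**Figure D3:**
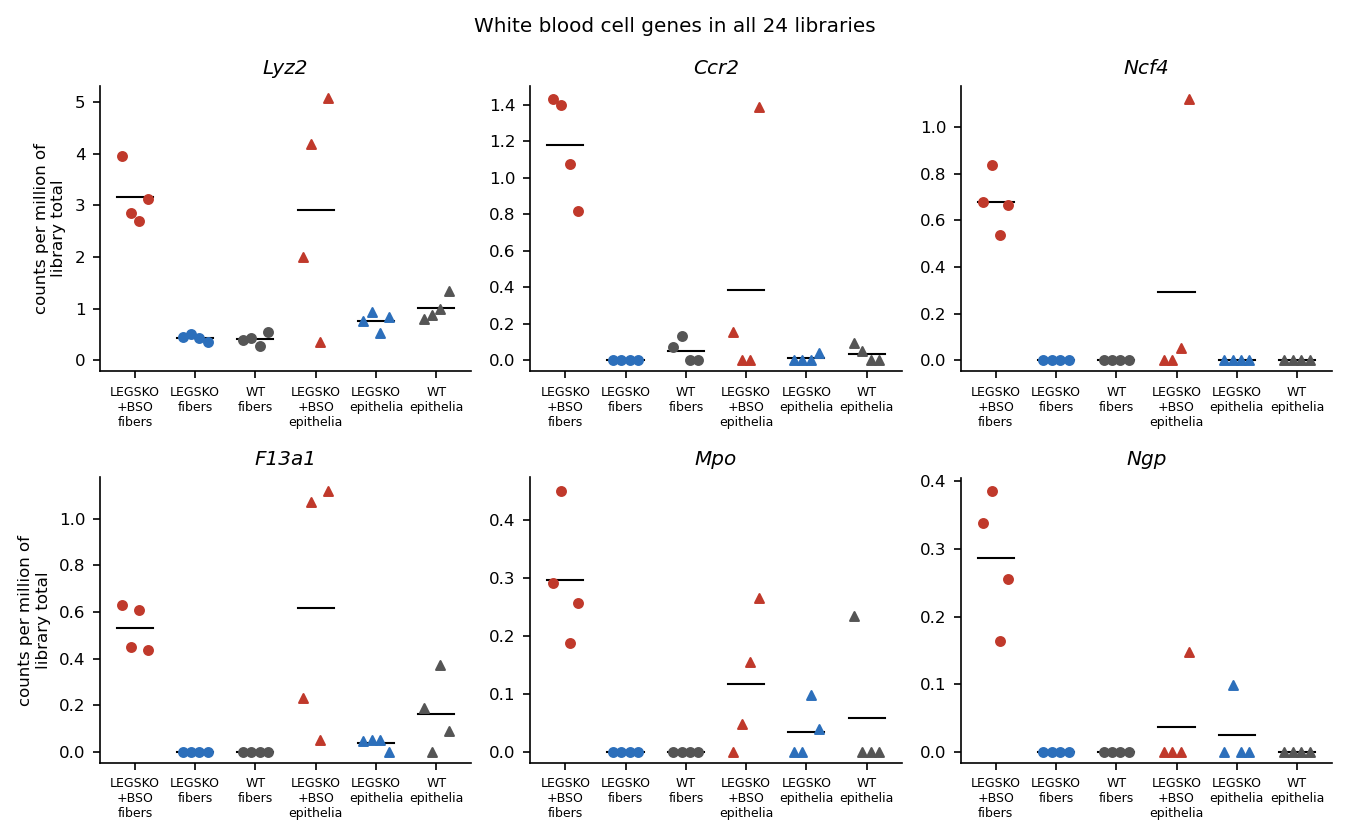
Each panel shows a white blood cell gene in all 24 libraries, as counts scaled to the library's total count (CPM). Circles are fiber and triangles epithelia libraries, and black lines are means of 4. The 4 LEGSKO+BSO fiber libraries lie above all LEGSKO and WT fiber libraries in each panel, and in Ccr2 and Ncf4 a single LEGSKO+BSO epithelia library, number 4, lies with them.

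The 250 bases before the start of the genes are shown for Lyz2, the call that held in every alternative, for Ccr2, and for Pirb (RefSeq, build GRCm38.p6, read 5′ to 3′ on the strand of the gene). GAGGAA, a core of the sites bound by the myeloid factor PU.1, was searched on both strands and is in capitals where it occurs, as itself or as its complement TTCCTC.
Lyz2, chr10:117282273-117282522, minus strand: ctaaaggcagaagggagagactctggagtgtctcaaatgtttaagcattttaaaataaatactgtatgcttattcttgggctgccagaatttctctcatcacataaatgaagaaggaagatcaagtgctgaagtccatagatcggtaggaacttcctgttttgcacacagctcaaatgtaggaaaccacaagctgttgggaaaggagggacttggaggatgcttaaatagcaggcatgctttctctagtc
Ccr2, chr9:124101933-124102182, plus strand: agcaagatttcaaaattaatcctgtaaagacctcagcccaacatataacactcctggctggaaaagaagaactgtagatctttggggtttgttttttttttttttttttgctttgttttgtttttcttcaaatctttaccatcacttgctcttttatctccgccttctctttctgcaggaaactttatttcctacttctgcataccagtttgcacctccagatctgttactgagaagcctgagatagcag
Pirb, chr7:3720383-3720632, minus strand: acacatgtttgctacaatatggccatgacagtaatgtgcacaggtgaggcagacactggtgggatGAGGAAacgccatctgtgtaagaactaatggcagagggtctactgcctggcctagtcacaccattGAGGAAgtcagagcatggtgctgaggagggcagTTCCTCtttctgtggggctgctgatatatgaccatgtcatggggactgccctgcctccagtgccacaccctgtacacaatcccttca
The letters occur 3 times before the start of Pirb and not in these windows of Lyz2 and Ccr2. F13a1 has 2 annotated starts, 1 of which has 1 copy. Among all 32851 such windows of the RefSeq table, 23.3% hold at least 1 copy.

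Mir703 was the gene called lower in LEGSKO+BSO fibers. It had 11.4, 12.02, 10.4 and 10.5 CPM in LEGSKO+BSO fibers, against 14.6, 20.9, 16.3 and 16.9 CPM in LEGSKO fibers and 14.8, 13.6, 14.8 and 14.1 CPM in WT fibers. All 4 LEGSKO+BSO libraries lay below all others. The difference from LEGSKO fibers was 1.55-fold (log2 -0.63, 95% interval -0.84 to -0.42, edgeR adjusted p = 0.0370). Thinned to equal depth, the 8 libraries gave Mir703 a log2 difference of -0.58 (edgeR adjusted p = 0.117). Mir682, the other miRNA gene described here, had 20.02, 21.8, 22.4 and 17.4 CPM in LEGSKO+BSO fibers and 27.5, 36.9, 29.0 and 28.9 CPM in LEGSKO fibers. It too did not overlap between the groups (log2 -0.58, edgeR adjusted p = 0.103), a condition by which both genes were chosen.

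Neither value can be assigned to a miRNA. The mature sequences are given with bases 2 to 8, the seed, in capitals (RefSeq, build GRCm38.p6), since both also stand in abundant messenger RNAs.
miR-703, chr5:98475616-98475636, minus strand: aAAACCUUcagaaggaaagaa
miR-682, chr13:75645119-75645139, plus strand: cUGCAGUCacagugaagucug
The 109-base hairpin of Mir703 (chr5:98475556-98475664) matches the Eef1a1 messenger RNA at 107 positions, and the 96-base hairpin of Mir682 (chr13:75645046-75645141) matches that of Rpl37a at 95. The 21 mature bases of each occur letter for letter in the same messenger RNA. Counting the gene of that messenger RNA, 4 other genes hold the mature bases of Mir703 and 12 those of Mir682. Reads that lie within identical stretches cannot be assigned to the miRNA gene or to these transcripts. Eef1a1, a translation elongation factor, had 8699, 8687, 8907 and 8408 CPM in LEGSKO+BSO fibers and 8608, 10620.0, 9735 and 9177 CPM in LEGSKO fibers, and the groups overlapped (log2 -0.14, edgeR adjusted p = 0.652). Rpl37a, a ribosomal protein, differed by -0.06 on the log2 scale (edgeR adjusted p = 0.867).

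Transcripts of the pathway that BSO blocks differed little. Gclc, whose levels are given above, overlapped between LEGSKO+BSO and LEGSKO fibers (log2 -0.02, 95% interval -0.37 to 0.33, edgeR adjusted p = 0.984). Gclm had 104, 105, 111 and 113 CPM in LEGSKO+BSO fibers and 98.1, 97.6, 108 and 97.9 CPM in LEGSKO fibers (log2 0.11, 95% interval -0.06 to 0.27, edgeR adjusted p = 0.667). For Gss the difference was -0.06 on the log2 scale (95% interval -0.25 to 0.13, edgeR adjusted p = 0.849). The groups overlapped in all 3 genes, none was called in any of 24 alternatives, and the intervals exclude changes beyond 0.37 on the log2 scale in either direction.

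Recycling and thiol supply gave no call either. Gsr was at 7.98, 10.1, 8.26 and 9.61 CPM in LEGSKO+BSO fibers and at 6.23, 8.04, 9.17 and 6.87 CPM in LEGSKO fibers (log2 0.25, edgeR adjusted p = 0.492). Slc7a11, the cystine importer, differed by 0.02 on the log2 scale (edgeR adjusted p = 0.952). Of 41 genes of glutathione synthesis and recycling, 34 could be tested and 0 were called. Their median log2 difference was -0.04, against -0.00412 over all genes tested, with 19 below 0 and 15 above, and it was 0.01 without LEGSKO fiber library 2. Without adjustment, 4 were higher and 0 lower at a p below 0.05, beside 5.66% and 4.85% of all genes: the glutaredoxin Glrx5 (log2 0.32), the efflux pumps Abcc1 (0.28) and Abcc5 (0.19) and the neutral amino acid carrier Slc1a4 (0.23).

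**Figure D4:**
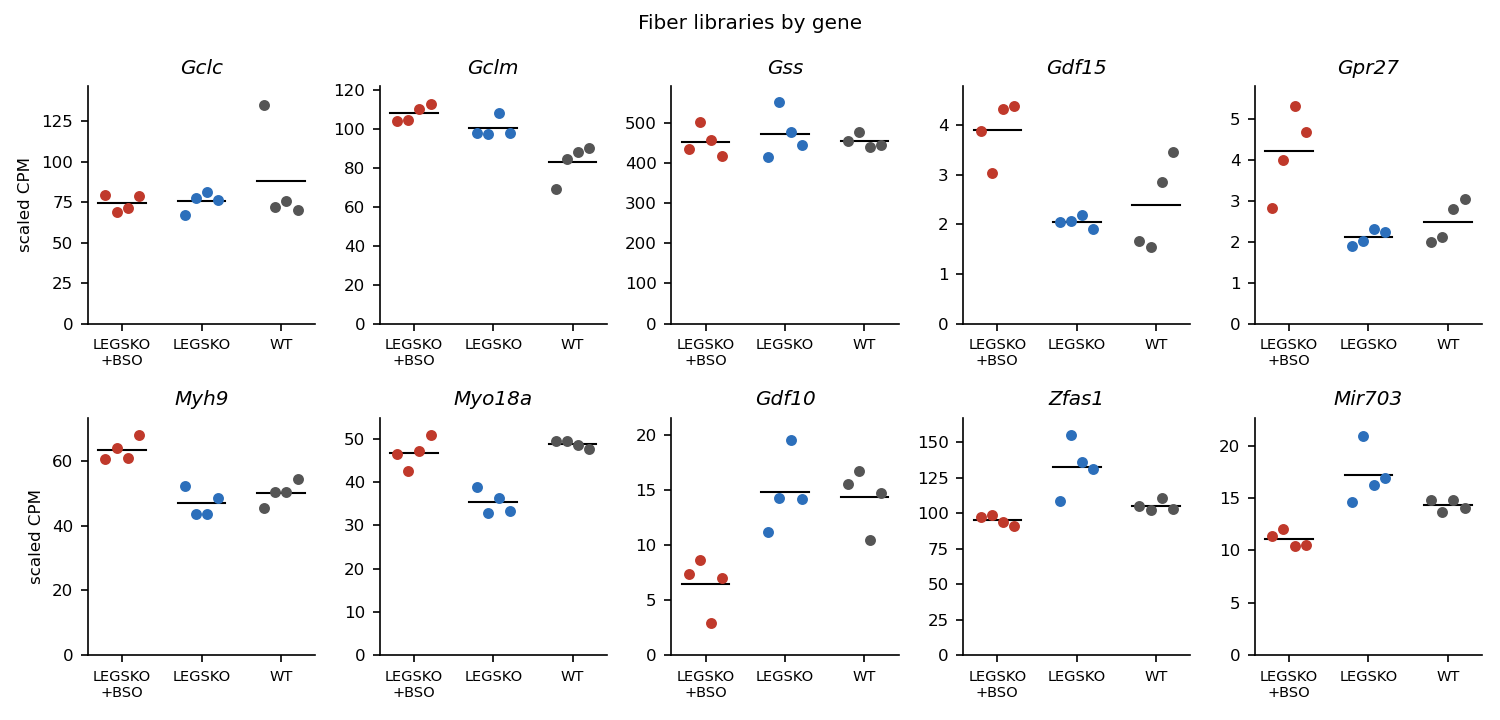
Scaled CPM of 10 genes in each fiber library, with LEGSKO+BSO left of LEGSKO and WT, and black lines for the mean of 4. Gclc, Gclm and Gss overlap between LEGSKO+BSO and LEGSKO fibers. The other 7 genes do not overlap between those groups, a condition of their choice, and of them Mir703 had an adjusted p below 0.05.

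Nor did oxidant and aldehyde defences give a call. Among 30 tested NRF2 target genes the median log2 difference was -0.01, and among 32 genes of aldehyde and carbonyl removal -0.05. Hmox1, the haem-degrading enzyme induced by many oxidants, had 624, 386, 652 and 439 CPM in LEGSKO+BSO fibers and 452, 489.9, 454 and 476 CPM in LEGSKO fibers (log2 0.17, edgeR adjusted p = 0.849). Nqo1, a quinone reductase, and Txnrd1, thioredoxin reductase, differed by -0.09 and 0.05 on the log2 scale (edgeR adjusted p = 0.931 and 0.914). These values overlapped between the groups. Srxn1, which reduces over-oxidised peroxiredoxins, was at 10.1, 9.52, 9.33 and 9.54 CPM in LEGSKO+BSO fibers and at 8.97, 8.77, 8.21 and 7.21 CPM in LEGSKO fibers. The 2 groups did not overlap, but the difference was not called (log2 0.22, edgeR adjusted p = 0.415). Txnip, the inhibitor of thioredoxin, had the largest positive difference of 26 thioredoxin and peroxiredoxin genes, with 21.4, 23.2, 23.4 and 19.01 CPM in LEGSKO+BSO fibers and 16.4, 15.3, 15.1 and 19.3 CPM in LEGSKO fibers (log2 0.40, edgeR adjusted p = 0.285).

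The metallothionein Mt1 set both knockout groups apart from WT. Mt1, a cysteine-rich zinc-binding protein, had 28.1, 31.4, 32.6 and 35.9 CPM in LEGSKO+BSO fibers and 25.7, 35.4, 25.5 and 29.7 CPM in LEGSKO fibers, against 1.17, 3.02, 1.24 and 2.00 CPM in WT fibers. LEGSKO+BSO and LEGSKO fibers overlapped, with a log2 difference of 0.14 (95% interval -0.19 to 0.47, edgeR adjusted p = 0.795). Between LEGSKO and WT fibers it was 3.90 (edgeR adjusted p = 9.01e-08). Mt2 was low throughout, at 0.402 to 0.506 CPM in LEGSKO+BSO fibers and 0 to 0.198 CPM in LEGSKO fibers (log2 2.17, edgeR adjusted p = 0.413). Reads of Mt1 and Mt2 may be shared, as they are close copies. Of 22 tested genes of metallothioneins and zinc handling, 18 were above 0 and 4 below, with a median of 0.09 and 0 calls.

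Among stress responses, the largest positive difference belonged to Gdf15, a cytokine that stressed cells secrete and that ATF4 and p53 induce. It had 3.88, 3.04, 4.33 and 4.38 CPM in LEGSKO+BSO fibers, against 2.05, 2.06, 2.18 and 1.90 CPM in LEGSKO fibers and 1.67, 1.54, 2.85 and 3.46 CPM in WT fibers. The LEGSKO+BSO libraries did not overlap the LEGSKO libraries but did overlap WT (log2 0.93 against LEGSKO, 95% interval 0.44 to 1.42, edgeR adjusted p = 0.215). Gdf15 belongs to the set called in alternative fits, whose choice required that LEGSKO+BSO and LEGSKO not overlap. Of 36 tested targets of the integrated stress response, 23 were above 0, and 5 were higher and 0 lower at an unadjusted p below 0.05, beside 5.66% and 4.85% of all genes. The ATF4 target Ddit3 differed by -0.08 on the log2 scale (edgeR adjusted p = 0.789), and Trib3 and Chac1, a glutathione-degrading enzyme, were too low to test. The p53 target Cdkn1a had 4.99, 5.67, 5.25 and 6.71 CPM in LEGSKO+BSO fibers and 4.29, 2.23, 2.10 and 4.19 CPM in LEGSKO fibers. Those ranges did not overlap (log2 0.82, edgeR adjusted p = 0.582). The unfolded protein response (28 genes tested, median 0.01), heat shock genes (32, median -0.06, and -0.03 without LEGSKO fiber library 2) and p53 targets (28, median -0.00127) held 0 calls.

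Fkbp5, a co-chaperone that limits the glucocorticoid receptor and is induced by it, had 20.7, 21.5, 21.9 and 20.7 CPM in LEGSKO+BSO fibers and 18.5, 15.9, 15.8 and 16.3 CPM in LEGSKO fibers. The groups did not overlap (log2 0.35, edgeR adjusted p = 0.107, and 0.0498 with the 8 libraries alone). Fkbp5 belongs to the set called in alternative fits, whose choice required no overlap and a call with the 8 libraries alone. Neither is thus support. Of 13 glucocorticoid targets, 10 were above 0, with a median of 0.11, but Tsc22d3, the glucocorticoid-induced leucine zipper, differed by -0.19 and Per1 by 0.07.

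Genes of cholesterol synthesis and uptake gave no call. Insig1, which holds back sterol synthesis and is itself a sterol-controlled gene, had 285, 381, 286 and 342 CPM in LEGSKO+BSO fibers, against 428, 434, 446 and 384 CPM in LEGSKO fibers and 523, 596, 489 and 576 CPM in WT fibers. The 3 groups did not overlap, with LEGSKO+BSO the lowest, then LEGSKO, then WT. The difference between LEGSKO+BSO and LEGSKO was -0.39 on the log2 scale (95% interval -0.60 to -0.17, edgeR adjusted p = 0.249), and between LEGSKO+BSO and WT it was -0.76 (edgeR adjusted p = 0.000913). Of 34 genes tested, 23 were below 0, beside 51% of all genes, with a median of -0.09, and -0.05 without LEGSKO fiber library 2. At an unadjusted p below 0.05, 2 were higher and 3 lower, beside 5.66% and 4.85% of all genes, and 0 were called. DESeq2 called 1, beside 80 (0.595%) of all genes tested.

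Transcripts of fiber structure gave no call. All 8 tested alpha and beta crystallins were below 0, with a median of -0.13, and all 10 tested gamma and other crystallins, with a median of -0.52. The alpha and beta median was -0.05 without LEGSKO fiber library 2. Cryaa, the most abundant of them, had 77483, 93231, 76613 and 75572 CPM in LEGSKO+BSO fibers and 79900.0, 100950.0, 97715 and 80218 CPM in LEGSKO fibers, and the groups overlapped (log2 -0.15, edgeR adjusted p = 0.872). Crygb, a gamma crystallin of early-formed fibers whose close copies can share its reads, had 12185, 11187, 11956 and 9227 CPM in LEGSKO+BSO fibers. It had 13988, 21213, 17844 and 17680.0 CPM in LEGSKO fibers and 79068, 10256, 14371 and 9270.1 CPM in WT fibers. LEGSKO+BSO lay below LEGSKO in every library, and WT library 1 stood far above all other libraries (log2 -0.67, edgeR adjusted p = 0.684). Without that WT library, 3 genes of the gamma list were called, beside 93 (0.683%) of all genes in that fit, 45 of them lower. Bfsp1 and Bfsp2, the beaded filament proteins, differed by -0.21 and -0.04, and Lim2 and the connexin Gja3 by -0.06 and 0.10, each with overlapping groups.

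**Figure D5:**
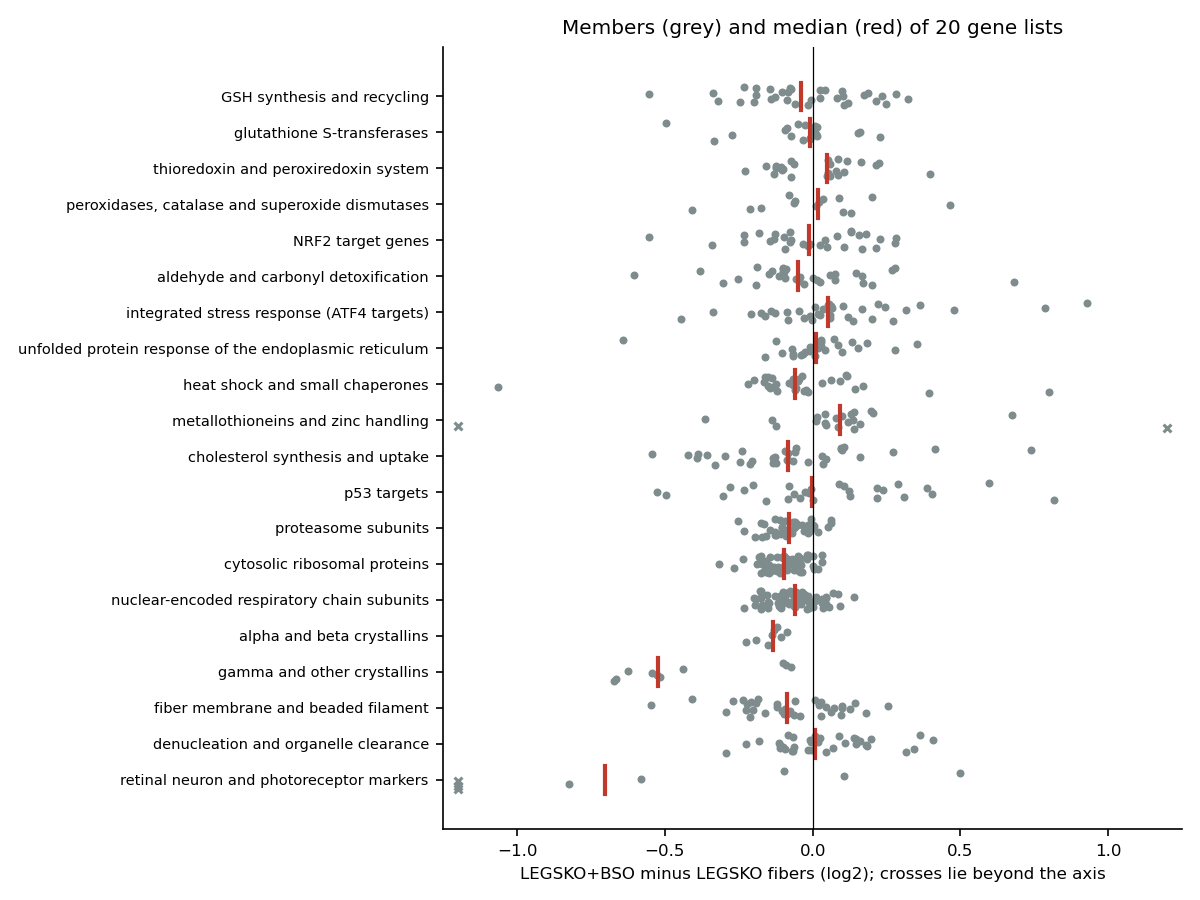
Grey points are the tested members of 20 gene lists and red lines their medians, as log2 differences between LEGSKO+BSO and LEGSKO fibers. Crosses at the edges are members beyond the axis. Medians lie near 0 except for gamma crystallins (-0.52) and retinal markers (-0.70), and 0 genes of these lists had an adjusted p below 0.05.

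Genes of large housekeeping assemblies lay mostly just below 0, without a call. Of 81 cytosolic ribosomal protein genes, 76 were below 0, with a median of -0.10, and of 76 nuclear-encoded respiratory chain genes 61, with a median of -0.06. Of 40 proteasome genes 34 were below 0, with a median of -0.08. Over all genes tested, 6855 of 13436 were below 0. Without LEGSKO fiber library 2 the ribosomal median was 0.00317 and the respiratory chain median 0.00571, so their direction rested on that library, and the proteasome median was -0.02, with 24 of 40 below 0. Differences also followed sequence composition. Among the fifth of genes with the lowest GC content the median was -0.07 and 31.3% were above 0, and among the fifth with the highest it was 0.08 and 69.1%. Across 12640 genes, which are not independent replicates, Spearman's rank correlation between the log2 difference and GC content was 0.281, and between the difference and transcript length 0.143. With offsets for both, the ribosomal median was -0.04 and 2 genes (0.0158%) were called, Lyz2 and Ccr2.

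Retinal markers had a negative median whose size depended on LEGSKO fiber library 1, the one with the high summed retinal level. Over 8 retinal genes tested the median log2 difference was -0.70, and -0.20 without that library.

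A set of 37 genes was called by each of 3 alternatives, the 8 libraries alone, DESeq2, and the fit without WT fiber library 1, with 22 higher and 15 lower in LEGSKO+BSO fibers. It was chosen after the values were seen, and these alternatives share libraries, so the shared calls are no independent support. Of the 37, 31 had named symbols, an average of at least 1 log2 CPM and groups that did not overlap. In the fit of 12 libraries, 30 of the 31 missed the threshold, with adjusted p of 0.0845 to 0.215; the exception was Mir703.

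A pair of myosins was among the higher genes. A call with the 8 libraries alone and no overlap were conditions of the set, so neither is support. Myh9, the heavy chain of nonmuscle myosin IIA, had 60.5, 63.9, 61.0 and 68.0 CPM in LEGSKO+BSO fibers, against 52.1, 43.4, 43.6 and 48.4 CPM in LEGSKO fibers (log2 0.43, 95% interval 0.27 to 0.60, edgeR adjusted p = 0.0845, and 0.0302 with the 8 libraries alone). Myo18a, an unconventional myosin that binds actin, had 46.6, 42.5, 47.2 and 51.0 CPM in LEGSKO+BSO fibers, 38.8, 32.8, 36.2 and 33.4 CPM in LEGSKO fibers and 49.6, 49.6, 48.7 and 47.6 CPM in WT fibers. LEGSKO stood below both other groups: it differed from WT by -0.47 on the log2 scale (edgeR adjusted p = 0.00397), while LEGSKO+BSO differed from WT by -0.06 and from LEGSKO by 0.41 (edgeR adjusted p = 0.0845). With offsets for GC content and transcript length, the difference between LEGSKO+BSO and LEGSKO was 0.26 for Myo18a (edgeR adjusted p = 0.296). Myl4, a myosin light chain, was among the lower genes (log2 -0.63, edgeR adjusted p = 0.173).

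Other higher genes of the set had diverse products. Gpr27, an orphan receptor, had 2.83, 4.01, 5.31 and 4.70 CPM in LEGSKO+BSO fibers and 1.90, 2.02, 2.30 and 2.25 CPM in LEGSKO fibers (log2 0.99, edgeR adjusted p = 0.107). Glcci1, a glucocorticoid-induced transcript, had 9.79, 5.44, 11.9 and 7.50 CPM in LEGSKO+BSO fibers, against 4.76, 4.68, 4.25 and 4.02 CPM in LEGSKO fibers and 1.72, 3.53, 2.55 and 2.48 CPM in WT fibers (log2 0.97 between LEGSKO+BSO and LEGSKO, edgeR adjusted p = 0.156). Tmtc1, an O-mannosyltransferase, was ordered in the same way over the 3 groups. It had 9.70, 6.70, 8.33 and 7.43 CPM in LEGSKO+BSO fibers, 5.34, 4.73, 5.79 and 4.97 CPM in LEGSKO fibers and 2.61, 1.89, 2.66 and 2.27 CPM in WT fibers. Its differences were 0.63 between LEGSKO+BSO and LEGSKO (edgeR adjusted p = 0.153) and 1.15 between LEGSKO and WT (edgeR adjusted p = 0.00133). Others with smaller differences were the desaturase Scd4 (log2 0.48), the calcium channel subunit Cacng4 (0.66), the zinc finger protein Zbtb40 (0.54), the eIF4E kinase Mknk2 (0.34), the phosphoinositide kinase Pip5k1b (0.36) and the sialyltransferase St3gal2 (0.32). For Mknk2 the value was 0.21 with offsets for GC content and transcript length.

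Among the lower genes, Gdf10, a secreted factor of the bone morphogenetic protein family, had 7.33, 8.65, 2.90 and 7.01 CPM in LEGSKO+BSO fibers, against 11.2, 14.3, 19.5 and 14.2 CPM in LEGSKO fibers and 15.6, 16.7, 10.4 and 14.7 CPM in WT fibers. LEGSKO and WT overlapped and LEGSKO+BSO lay below both (log2 -1.19 against LEGSKO, 95% interval -1.73 to -0.65, edgeR adjusted p = 0.135). Ints6l, a relative of an Integrator subunit, had 6.74, 8.52, 3.91 and 7.62 CPM in LEGSKO+BSO fibers and 13.7, 10.01, 12.9 and 13.2 CPM in LEGSKO fibers (log2 -0.89, edgeR adjusted p = 0.103). Ttyh1, a membrane protein of the tweety family, had 2.94, 2.40, 2.59 and 2.32 CPM in LEGSKO+BSO fibers and 4.22, 4.77, 5.24 and 4.84 CPM in LEGSKO fibers (log2 -0.89, edgeR adjusted p = 0.0891). The treated libraries were the lower ones in these 3 genes, as the choice of the set without overlap required. Ptprn2, a phosphatase-like protein of secretory granules, lay between the other groups, with 5.40, 5.34, 5.09 and 5.42 CPM in LEGSKO+BSO fibers, 7.74, 7.09, 7.74 and 8.33 CPM in LEGSKO fibers and 3.78, 3.21, 3.90 and 3.84 CPM in WT fibers (log2 -0.54 against LEGSKO, edgeR adjusted p = 0.0973). Gp2 (log2 -1.11), Ap1s2 (-0.63), the stress granule protein Tia1 (-0.36) and the ubiquitin ligase adaptor Wsb1 (-0.48) were also among them.

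Zfas1 and Snhg5, hosts of small nucleolar RNAs, were also among the lower genes. Zfas1 had 97.0, 98.7, 93.9 and 91.3 CPM in LEGSKO+BSO fibers, against 109, 155, 136 and 131 CPM in LEGSKO fibers and 105, 102, 111 and 103 CPM in WT fibers (log2 -0.48, edgeR adjusted p = 0.0891). Snhg5 had 14.7, 16.8, 14.9 and 15.4 CPM in LEGSKO+BSO fibers and 18.5, 25.4, 24.6 and 20.4 CPM in LEGSKO fibers (log2 -0.52, edgeR adjusted p = 0.0973). In both genes the LEGSKO+BSO libraries lay below all 4 LEGSKO libraries, as the choice of the set without overlap required. Of 30 snoRNA hosts and translation factors, a list gathered after the values were seen, 26 were below 0, with a median of -0.14, and 0 were called. The median was -0.08 without LEGSKO fiber library 2 and -0.08 with offsets for GC content and transcript length.

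Whether fibers and epithelia differed in their response to BSO was tested as an interaction over 24 libraries. Of 15560 genes, 5 (0.0321%) were called, each with the more positive response in fibers, and 1645 (10.6%) had an unadjusted p below 0.05. Values here are CPM scaled over all 24 libraries, so they differ from those scaled over fibers alone. Mgat5b, a glycosyltransferase, had 33.5, 27.9, 34.3 and 32.7 CPM in LEGSKO+BSO fibers and 24.2, 30.9, 26.4 and 25.5 CPM in LEGSKO fibers. In epithelia it had 2.50, 2.69, 2.19 and 1.58 CPM with BSO and 4.55, 5.56, 3.49 and 4.67 CPM without. The log2 responses were 0.26 in fibers and -1.05 in epithelia, a difference of 1.31 (edgeR adjusted p = 0.0117). Ctbp1, a transcriptional co-repressor, had 51.1, 49.5, 53.7 and 54.2 CPM in LEGSKO+BSO fibers and 44.4, 42.5, 42.4 and 39.1 CPM in LEGSKO fibers, and its responses were 0.31 in fibers and -0.17 in epithelia (edgeR adjusted p = 0.0117). The ubiquitin-conjugating enzyme Ube2e2 and the actin-binding protein Lasp1 differed in response by 0.62 and 0.51 (edgeR adjusted p = 0.0471 each). The 5th gene was Gm44505 (0.43, edgeR adjusted p = 0.0471). The count was 0 with a replicate block and 54 with DESeq2.

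The white blood cell genes did not pass that test: the difference in response was 0.85 for Lyz2 (edgeR adjusted p = 0.656). In the same fit, Lyz2 was higher in LEGSKO+BSO than in LEGSKO epithelia (log2 1.89, edgeR adjusted p = 0.0349). The groups overlapped, with 7 counts in treated library 3 and 172 in treated library 4, against 11 to 21 in LEGSKO epithelia. Lyz2 was one of 250 genes (1.61%) called in epithelia. Serpina3n, an acute phase protease inhibitor, was one of them, with a log2 difference of 3.26 in epithelia (edgeR adjusted p = 0.00329). In fibers it had 0.414, 0.269, 0.0893 and 2.18 CPM with BSO and 0.348, 0.688, 0.794 and 0.475 CPM without (log2 0.35, edgeR adjusted p = 0.895), and the difference in response was not called (edgeR adjusted p = 0.348).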

How the data were processed

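RNA of mouse lens fibers and epithelia was sequenced, and the authors deposited a table of whole read counts per gene for 24 libraries, identified by Entrez gene numbers. Upstream tools, per the submitters' processing notes, were TopHat, DESeq, bcl2fastq and CASAVA 1.8, with mm10 (GRCm38) as the build. The read counter, the gene models, the strand setting and the name of the kit are not given in the labels used here. Of 24415 identifiers, 24334 matched a symbol, and the other 81 held 0.914% of counts.

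The 12 fiber libraries were fitted together with edgeR 4.0.16 (R 4.3.3, limma 3.58.1) in 3 groups, with TMM scaling, filterByExpr (minimum count 10, minimum total 15), the quasi-likelihood F test and Benjamini-Hochberg adjustment over 13436 genes. Intervals are 95%, come from this fit and include the spread between libraries. Tissue differences in response were interaction terms over all 24 libraries. CPM are counts scaled to the TMM-adjusted library total. The biological coefficient of variation was 12.8% in fibers. Since the labels do not say that libraries came from separate animals, p-values measure the spread between these libraries, which may be technical. Folds against groups at 0 use a floor of 3 counts over the group, which covers counting error only. DESeq2 1.42.0 and other settings were alternatives, and the procedure was tested on simulated data.

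Genes were named by rule: Gclc, Gclm and Gss, and called genes with an average of at least 1 log2 CPM, no overlap between groups and a named symbol. Lyz2, Ccr2 and Ncf4 fell below that level; they and the other genes named were chosen after their values were seen. The members, the 46 gene lists and the 2 lists added later were chosen with earlier results of these data known. Sequences, hairpins and starts are from RefSeq (GRCm38.p6); Ncf4 is named without a promoter sequence.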

Additional observations from a re-analysis of the deposited data

Results flagged for a closer look

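A library far from the other 3 of its group was looked for in 117 groups of values, a search in which chance flags about 1 in 20 groups. WT fiber library 1 stood apart in 3 of them. Crystallins took 50.1% of its counts, against 27.6% to 29.6% in the other WT fibers, Gclc was at 135.2 CPM against 70.4 to 75.5 CPM, and Gp2 was at 20.6 CPM against 7.93 to 9.07 CPM. Without it, the LEGSKO+BSO and LEGSKO fibers gave 93 called genes in place of 4.

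LEGSKO fiber library 1 held 70.5 CPM of summed retinal markers, against 28.4 to 33.3 CPM in the other LEGSKO fibers. LEGSKO fiber library 2 was low in St3gal2, at 27.9 CPM against 31.0 to 31.6 CPM, and high in Mir682, at 36.9 CPM against 27.5 to 29.0 CPM. LEGSKO fiber library 3 was high in Gclm, at 108.2 CPM against 97.6 to 98.1 CPM. WT fiber library 2 was low in Ptprn2, at 3.21 CPM against 3.78 to 3.90 CPM.

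The response to BSO differed between fibers and epithelia by an interaction test in 5 genes. The fibers minus epithelia difference in log2 response was 1.31 for Mgat5b, 0.62 for Ube2e2, 0.51 for Lasp1, 0.48 for Ctbp1 and 0.43 for Gm44505.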

How the results depend on the processing

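The count of calls between LEGSKO+BSO and LEGSKO fibers (4, with 3 higher and 1 lower) kept its value with DESeq2 size factors, upper-quartile scaling and crystallins left out of library sizes. It was 80 (44 higher, 36 lower) with DESeq2's test, 14 (7 and 7) with no filter, 1 (1 and 0) at a minimum count of 50, 56 (30 and 26) with 8 libraries, 41 (16 and 25) with those less LEGSKO library 1, 7 (3 lower) with 24 libraries, 1 (1 and 0) thinned, and 2 (0 lower) with GC and length offsets. Leaving out single libraries gave 1 to 93 calls, 1 to 48 higher and 0 to 45 lower; 93 was without WT fiber library 1 and 7 without LEGSKO fiber library 1. The cause was not tested.

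Replicate numbers were not taken as pairs: with the replicate block the count was 2 (0 lower), and correlations of same-numbered libraries of the 2 groups ran from -0.0309 to 0.167, with 0 of 4 closest to their own number. The difference between tissues (5 genes) gave 2 with DESeq2 size factors, 54 with DESeq2's test, 1 with no filter, 0 with the block, and 1 to 8 without single libraries.

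Gclc ran from -0.0670 to 0.0227 (log2) without single libraries and changed sign to 0.0227, 0.00682 and 0.0206 without LEGSKO+BSO libraries 2 and 3 and LEGSKO library 3. Gss ran from -0.114 to 0.0231 and changed sign without LEGSKO library 2. None of these was called. Across named genes, 720 recomputed values kept direction and side, 122 passed the threshold anew and 38 lost it. The named genes include 30 that missed the threshold in the fit of 12 libraries and were chosen for their calls in 3 alternatives. Part of the 122 was thus fixed by that choice. Low counts limit the white blood cell genes.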

Other observations

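Beyond the groups above, 3 lists of signalling and immune genes held no call between LEGSKO+BSO and LEGSKO fibers. Of 25 tested interferon, complement and major histocompatibility genes, 16 were below 0, with a median log2 difference of -0.09, and 0 were higher and 5 lower at an unadjusted p below 0.05, beside 5.66% and 4.85% of all genes. Of 25 tested Wnt receptors and antagonists, 16 were above 0 (median 0.08) and 4 were higher at that level, and of 23 FGF receptors and feedback targets 15 were above 0 (median 0.07). Without LEGSKO fiber library 2 these medians were 0.00659 for the Wnt and 0.00993 for the FGF list. Among 41 genes of fatty acid metabolism, Cd36, a fatty acid and lipoprotein receptor, was at 0.115, 0.434, 0.112 and 0.255 CPM in LEGSKO+BSO fibers and at 0.309, 0.859, 0.952 and 0.734 CPM in LEGSKO fibers. Its groups overlapped (log2 -1.61, edgeR adjusted p = 0.321).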
